A study of Homo sapiens with 6 samples.

Results

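To ask where PLAG1-S and USF2 sit around the genes of hemoglobin, heme and iron, peaks were collected at 37 genes of globin, heme and iron metabolism among the 20037 protein-coding genes of the reference table. A peak was assigned to a gene when any base of it lay inside the gene body or within 3 kb of it, and for the alpha and beta globin clusters all peaks within 60 kb of the globin genes were also described. The genes were listed by function, with earlier results of these data known. They held 144 of the 81170 peaks in the 4 deposited lists. These were 65 of 37574 peaks for PLAG1-S in clone 4, 58 of 29889 for PLAG1-S in clone 5, 15 of 9338 for USF2 in clone 4 and 6 of 4369 for USF2 in clone 5.

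The lists came from ChIP-seq on 2 clones, 4 and 5, of K562, a human chronic myelogenous leukemia line, in which USF2 and Flag-tagged PLAG1-S, a form of the zinc-finger factor PLAG1, were overexpressed together. Each clone gave a PLAG1-S library (anti-Flag), a USF2 library (anti-USF2) and an input library, with a stated depth of 42.5 M single-end reads of 50 bases for an immunoprecipitation and 55 M for an input. All libraries came from cells that overexpressed both factors, so that binding at endogenous levels was not measured, and each replicate is 1 clonal line. Every list was called against the same merged inputs. The peak lists carry no expression values by which the erythroid character of these clones, or the level of each factor, could be checked.

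Globins carry heme, an iron-bearing ring made by a chain of enzymes that begins and ends in mitochondria. Red cell precursors take up transferrin-bound iron through the transferrin receptor, pass it to mitochondria, store the excess in ferritin, and sense both iron and heme so that supply meets globin synthesis. K562 cells express embryonic and fetal globins and raise heme synthesis when they are driven toward the erythroid lineage. USF2 is a basic helix-loop-helix leucine-zipper factor that binds the E-box CACGTG, and PLAG1 recognizes a G-rich bipartite sequence. That sequence was searched here only as the core GGGGC followed after 6 to 8 bases by GGG, and other forms of it were not searched.

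The promoters of 6 members are shown because they cover the kinds of site found at these genes. SLC25A38 and HMOX2 had peaks of both factors over an E-box. TFRC and FTL had peaks of both factors, but their USF2 peaks of both clones lay past the start, outside the bases shown. Those bases hold no CACGTG, and the bases under these USF2 peaks were not searched. SLC11A2 and STEAP3 had strong PLAG1-S peaks with no USF2 peak in any list. Each line gives the 250 bases before the gene start from RefSeq promoter windows (GRCh38.p14), 5′ to 3′ on the strand of the gene. Capitals mark CACGTG in SLC25A38 (chr3:39383120-39383369 on the plus strand) and HMOX2 (chr16:4474486-4474735 on the plus strand). In TFRC (chr3:196082091-196082340 on the minus strand), FTL (chr19:48965059-48965308 on the plus strand), SLC11A2 (chr12:51026385-51026634 on the minus strand) and STEAP3 (chr2:119223584-119223833 on the plus strand) capitals mark GGGGC and GGG separated by 6 to 8 bases on either strand, with overlapping matches run together.
SLC25A38: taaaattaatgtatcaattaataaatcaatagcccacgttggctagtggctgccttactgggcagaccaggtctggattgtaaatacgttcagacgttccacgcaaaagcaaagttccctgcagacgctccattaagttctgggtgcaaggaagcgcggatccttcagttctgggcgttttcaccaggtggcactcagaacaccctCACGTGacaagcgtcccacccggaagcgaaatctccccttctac
HMOX2: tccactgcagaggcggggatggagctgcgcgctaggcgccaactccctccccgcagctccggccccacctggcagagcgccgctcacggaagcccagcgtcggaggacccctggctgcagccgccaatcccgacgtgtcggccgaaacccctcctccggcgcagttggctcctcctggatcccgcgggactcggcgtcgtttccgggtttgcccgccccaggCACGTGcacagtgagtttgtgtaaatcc
TFRC: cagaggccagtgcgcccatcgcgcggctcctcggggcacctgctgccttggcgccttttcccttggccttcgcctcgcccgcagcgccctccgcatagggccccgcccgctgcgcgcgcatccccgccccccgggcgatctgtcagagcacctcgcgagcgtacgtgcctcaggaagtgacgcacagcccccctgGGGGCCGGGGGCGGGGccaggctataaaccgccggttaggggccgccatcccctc
FTL: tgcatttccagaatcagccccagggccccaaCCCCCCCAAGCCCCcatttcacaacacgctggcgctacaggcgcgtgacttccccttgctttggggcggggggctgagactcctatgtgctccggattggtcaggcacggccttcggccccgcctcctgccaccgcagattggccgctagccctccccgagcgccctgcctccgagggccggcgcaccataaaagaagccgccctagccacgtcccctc
SLC11A2: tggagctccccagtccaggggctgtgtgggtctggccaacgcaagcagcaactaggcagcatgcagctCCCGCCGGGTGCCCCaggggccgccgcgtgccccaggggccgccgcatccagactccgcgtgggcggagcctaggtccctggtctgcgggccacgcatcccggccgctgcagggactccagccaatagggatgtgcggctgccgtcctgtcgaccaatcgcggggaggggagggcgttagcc
STEAP3: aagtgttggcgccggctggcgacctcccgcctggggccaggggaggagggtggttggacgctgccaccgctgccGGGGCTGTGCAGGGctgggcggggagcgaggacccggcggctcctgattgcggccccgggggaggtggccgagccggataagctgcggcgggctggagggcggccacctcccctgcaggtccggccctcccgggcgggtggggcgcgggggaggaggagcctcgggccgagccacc

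PLAG1-S occupied most of these genes in both clones, and USF2 occupied few. A PLAG1-S peak called in both clones (a peak from clone 4 that shares at least 1 bp with any from clone 5) lay at 28 of the 37 genes (75.7%), where 52% of all protein-coding genes had such a peak. A USF2 peak called in both clones lay at 5 of 37 (13.5%), beside 10.3% of all genes. The same 5 genes, FTH1, FTL, HMOX2, SLC25A38 and TFRC, had a co-bound peak, a PLAG1-S peak of both clones with its edges within 100 bp of a USF2 peak of both clones, and 9.98% of all genes did. The shares for USF2 and for co-bound peaks were thus near those of all genes. No test was run of the members against other genes.

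Much of this occupancy lay at gene starts. Within 1 kb of the start, or of either gene end for the 12 members with no strand in the promoter table, 24 of 37 members had a PLAG1-S peak of both clones, beside 38.9% of all genes, and 5 had a USF2 peak of both clones, beside 7.05%. A start was known for 25 of 37 members and 15842 of 20037 coding genes. Either end was thus allowed for a larger share of the members, which favors their counts. Over the 35 PLAG1-S loci of both clones at members with a known start, 18 had their clone 4 summit within 500 bp of it and the median distance was 480 bp. The same distances were not computed for all coding genes, so they are not read as particular to the members. At 5 of the 35 the start of another coding gene was closer.

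Taken list by list, PLAG1-S peaks lay at 30 members in clone 4 (64% of all genes) and at 30 in clone 5 (58.3% of all genes). USF2 peaks lay at 10 members in clone 4 (25.3% of all genes) and at 6 in clone 5 (13.6% of all genes). CPOX and FECH had PLAG1-S peaks in clone 5 only, and HBG1 and HMOX1 in clone 4 only. ACO1, HBB, HBD, HBE1 and SLC40A1 had no peak in any list. Median gene body length was 21133 bp in the members and 24115 bp in all coding genes.

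**Figure D1:**
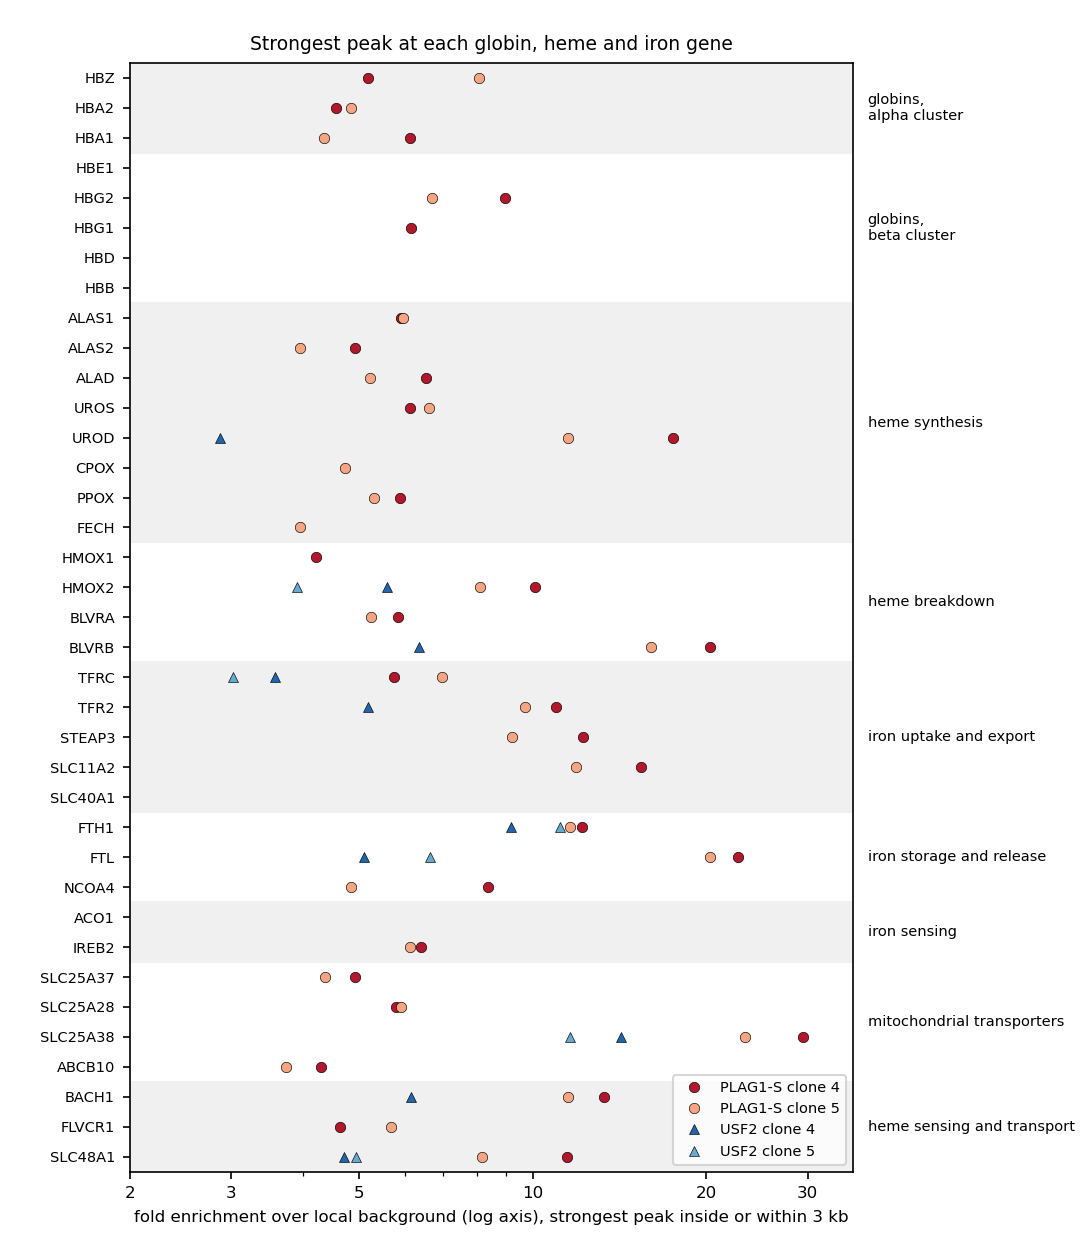
Fold enrichment of the strongest peak at each of the 37 genes (log axis), with circles for PLAG1-S and triangles for USF2 in clones 4 and 5, and genes grouped by role. SLC25A38 holds the largest fold of each factor, 29.4 for PLAG1-S and 14.3 for USF2 in clone 4, and rows with no symbol had no peak.

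Fold enrichment here is the authors' ratio of fragments at the summit to the local background of the merged inputs. The fragments over each summit, recovered from fold and p, ran at the members from 14 to 174 for PLAG1-S in clone 4, from 15 to 130 in clone 5, from 16 to 84 for USF2 in clone 4 and from 18 to 67 in clone 5, over local backgrounds of 2.6 to 8.65 fragments. The smallest peaks of the lists had 11 fragments, so a missing peak means that none passed the authors' threshold, not that the factor was absent. Peaks of the USF2 lists reach q-values of 0.049 and 0.048 and those of the PLAG1-S lists 0.0099 and 0.0097.

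Mitochondrial transporters held the strongest site. SLC25A38 carries glycine into mitochondria, where it is the substrate for the committed step of heme synthesis. At its start PLAG1-S reached a fold of 29.4 in clone 4 (174 fragments) and 23.4 in clone 5 (130 fragments), and USF2 reached 14.3 (84 fragments) and 11.6 (67 fragments). All 4 libraries were thus high at the same place. The clone 4 peaks lay in the top 1.03% of the PLAG1-S list and the top 3.44% of the USF2 list by fold.

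The summits of both factors at SLC25A38 fell within 18 bp of the E-box. Clone 4 summits for PLAG1-S and USF2 were 1 bp apart and lay 45 and 46 bp before the gene start, and clone 5 summits were 27 bp apart. The CACGTG shown above begins 44 bp before the start, and the 4 summits lay 1, 4, 2 and 18 bp from it (PLAG1-S clone 4 and 5, USF2 clone 4 and 5). No GGGGC was found on either strand of this 300-base window, which runs 50 bases past the start, and only the letters of this window were searched. A further PLAG1-S peak lay 918 bp inside the gene, with folds of 7.65 and 6.05 and no USF2 peak.

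The other 3 mitochondrial transporters had PLAG1-S peaks in both clones and no USF2 peak. SLC25A37 and SLC25A28 are the mitoferrins that bring iron into mitochondria. PLAG1-S folds were 4.91 and 4.37 at SLC25A37 in clones 4 and 5, and at SLC25A28 they were 5.27 and 4.44 downstream of the start in the promoter table and 4.503 and 5.92 upstream of it, both within the annotated gene body. ABCB10, an inner-membrane transporter needed for heme synthesis in erythroid cells, had folds of 4.30 and 3.73 at a summit 83 bp inside the gene. These folds were all under those at the start of SLC25A38 in the same clone.

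Heme breakdown also held a site of coincident summits. HMOX2, the constitutive heme oxygenase, had PLAG1-S folds of 10.1 and 8.11 (47 and 36 fragments) and USF2 folds of 5.58 and 3.91 (27 and 18 fragments) in clones 4 and 5. The summits of the 2 factors were 27 bp apart in clone 4 and 10 bp apart in clone 5. They lay 18, 0, 4 and 5 bp from the CACGTG that begins 28 bp before the start of HMOX2, in the same order of libraries as above. The start of NMRAL1 is 65 bp from the clone 4 PLAG1-S summit, so that the site lies at the starts of both genes. A further PLAG1-S site, 2909 bp beyond the other end of HMOX2, had folds of 8.28 and 7.44 and no USF2 peak. Neither HMOX2 nor SLC25A38 had a match to the bipartite form searched in its window, and HMOX2 held GGGGC at 36 and 189 bp before the start.

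BLVRB, which reduces biliverdin and flavins, had 3 PLAG1-S peaks in both clones. The strongest, 1066 bp inside the gene, had folds of 20.3 and 16.04 (82 and 64 fragments). USF2 had a peak at this place in clone 4 only, with a fold of 6.36 and its summit 1 bp from that of PLAG1-S. The other peaks of BLVRB, at 217 bp inside and 598 bp before the start, had folds of 7.03 and 5.91 and of 7.46 and 5.34. BLVRA, the main biliverdin reductase, had PLAG1-S folds of 5.83 and 4.48 at a summit 14 bp past the start in the promoter table, 572 bp inside the gene body, and no USF2 peak. HMOX1, the inducible heme oxygenase, had a PLAG1-S peak in clone 4 only, with a fold of 4.22 and 15 fragments.

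FTL and FTH1 had the most PLAG1-S peaks of any member in each clone. FTL, the ferritin light chain, is a gene of 1571 bp with 6 PLAG1-S peaks inside it or within 3 kb in clone 4 and 7 in clone 5. Of the 3197 coding genes of at most 5 kb, 1.06% had as many clone 4 peaks. The largest FTL peaks lay before the gene, at 2791 bp from the start with folds of 22.7 and 20.3 and at 1403 bp with folds of 21.5 and 17.5 in clones 4 and 5. No USF2 peak lay at either. Nearer to the gene, PLAG1-S peaks of both clones had clone 4 folds of 13.6 at 202 bp before the start, 7.57 at 851 bp and 9.07 at 1329 bp inside, and 11.2 at 2425 bp past it, with clone 5 folds of 11.4, 4.94, 7.37 and 6.75.

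The USF2 peak of both clones at FTL lay between these PLAG1-S summits rather than on them. Its fold was 5.11 in clone 4, 398 bp inside the gene, and 6.63 in clone 5, 404 bp inside the gene (22 and 28 fragments), and a further clone 4 peak of fold 4.28 overlapped the same clone 5 peak. The co-bound PLAG1-S peaks were those at 202 bp before the start and at 851 and 1329 bp inside, and their clone 4 summits were 600, 121 and 599 bp from the nearest summit of a USF2 peak found in both clones. USF2 peaks called in clone 4 only lay nearer to PLAG1-S summits, with folds of 4.13 at 171 bp before the start and 4.11 at 2449 bp past it. No CACGTG was found in the FTL window. That window ends before the USF2 peaks of both clones begin, and the bases under them were not searched.

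FTH1, the ferritin heavy chain that oxidizes iron for storage, had peaks of both factors near one end in both clones. Folds from the anti-Flag and anti-USF2 libraries are not a common scale of occupancy. Near the gene end with the higher coordinate, USF2 had folds of 9.17 in clone 4 and 11.2 in clone 5 (45 and 50 fragments), and PLAG1-S had 8.88 and 7.61 (46 and 35 fragments). The USF2 summit lay 288 bp inside that end and the PLAG1-S summit 111 bp outside it in clone 4, 399 bp apart, and the gap in clone 5 was 342 bp. FTH1 and SLC25A38 were the members whose USF2 peaks passed a −log10 q of 10 in both clones. The strongest PLAG1-S peak of FTH1, with folds of 12.2 and 11.6, lay 541 bp inside the other end, where USF2 had a peak of 5.35 in clone 4 only. The other PLAG1-S peaks of both clones had folds of 8.83 and 5.81, this one also within 100 bp of the USF2 peak with summits 639 bp apart in clone 4, and of 8.69 and 4.73 at 736 bp beyond the lower end.

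**Figure D2:**
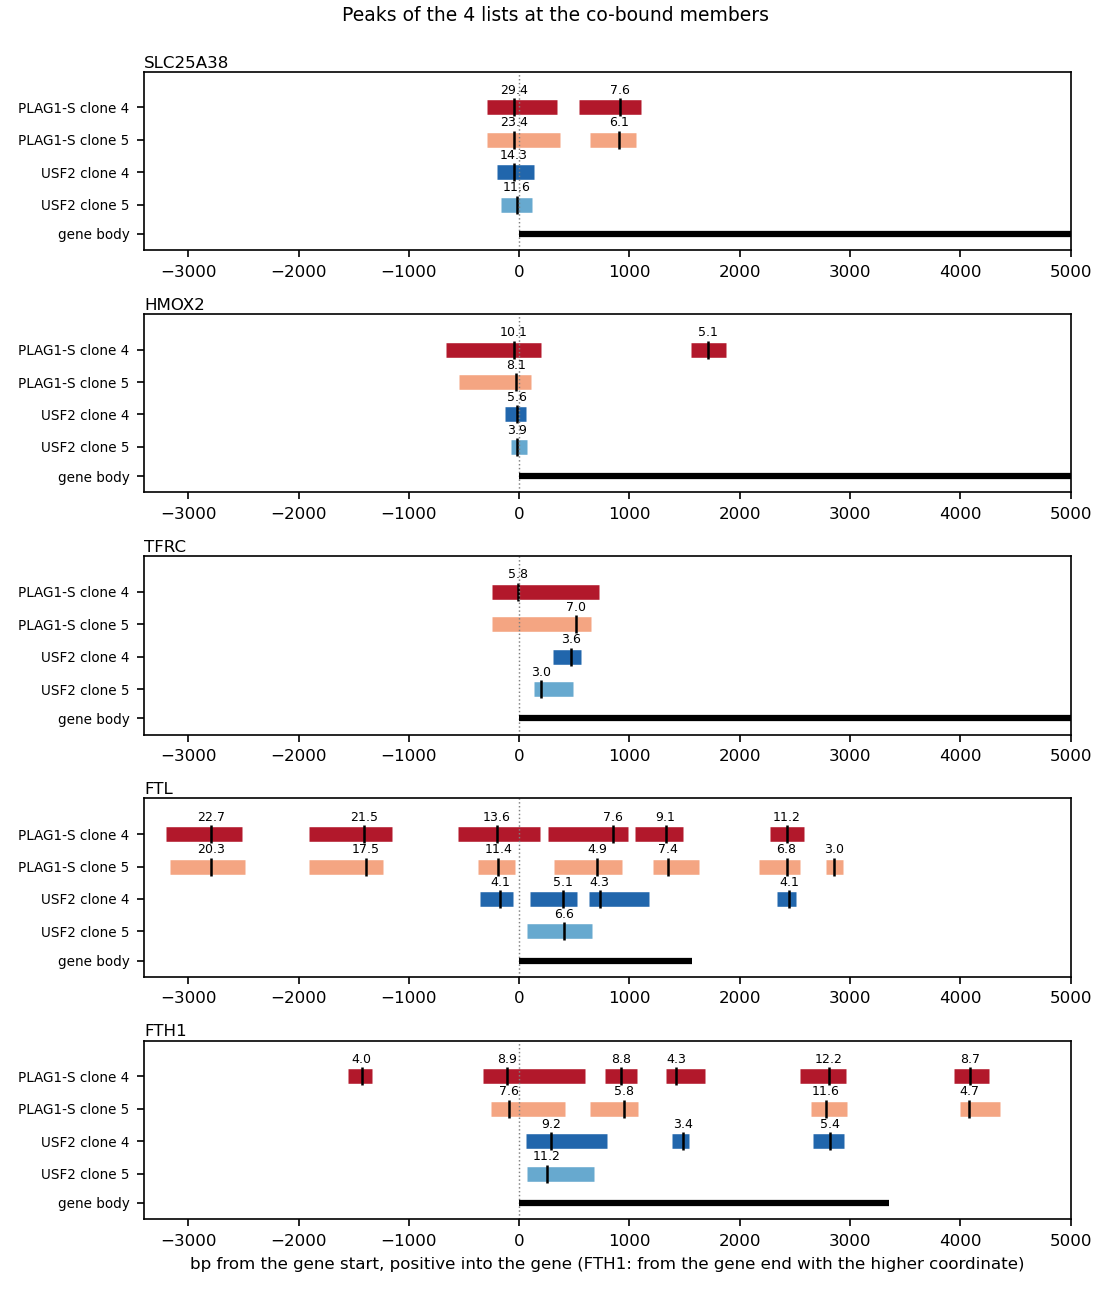
Peaks of the 4 lists at the 5 co-bound genes, with bars for the called intervals, ticks for summits and numbers for fold enrichment, against distance in bp from the gene start (for FTH1, from the gene end with the higher coordinate). The 4 summits coincide at the start of SLC25A38 and HMOX2, while in the co-bound peaks of TFRC, FTL and FTH1 those of the factors are 121 bp or more apart. USF2 peaks of clone 4 only, at FTL and FTH1, lie nearer to PLAG1-S summits.

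NCOA4, the receptor that takes ferritin to autophagy and frees its iron, had PLAG1-S peaks of both clones at 2 places and no USF2 peak. The larger one, 7082 bp inside the gene, had folds of 8.36 and 4.85, and the one 302 bp inside had 4.19 and 4.12. FTL and FTH1 have processed copies elsewhere in the genome, and reads of 50 bases can match such copies, so that the folds within their exons carry this uncertainty.

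Among the genes of iron uptake and export, TFRC had the only USF2 peak of both clones. TFRC encodes the transferrin receptor. PLAG1-S had folds of 5.76 and 6.96 (48 and 38 fragments) and USF2 folds of 3.58 and 3.02 (20 and 22 fragments), the lowest USF2 folds of the co-bound members in both clones. The summits were 475 bp apart in clone 4 and 317 bp apart in clone 5, and the PLAG1-S summits themselves were 520 bp apart between the clones inside a wide peak. The clone 4 PLAG1-S summit lay 6 bp before the start, with the bipartite match beginning 55 bp before it.

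The other uptake genes carried larger PLAG1-S folds without USF2 in both clones. SLC11A2, the divalent metal transporter that moves iron out of the endosome, had 15.5 and 11.9 (83 and 60 fragments), 169 bp before the start in the promoter table but within the gene body, where the capitals of its sequence begin 182 bp before it. STEAP3, the endosomal ferrireductase, had 12.3 and 9.21 (51 and 41 fragments), 132 bp inside the gene. TFR2, the transferrin receptor that senses iron load, had 11.004 and 9.71 (53 and 44 fragments), 44 bp beyond the gene end with the higher coordinate, and a USF2 peak of 5.19 in clone 4 only lay 1446 bp beyond that end. No list had a peak at SLC40A1, ferroportin, the iron exporter.

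Of the iron sensors, which bind iron-responsive elements in mRNAs, IREB2 had PLAG1-S folds of 6.41 and 6.13, 455 bp past the start in the promoter table and 1240 bp inside the gene body, and ACO1 had none. Neither had a USF2 peak.

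PLAG1-S lay at 6 of 8 heme synthesis genes in both clones, beside 52% of all genes, and USF2 at none, beside 10.3% of all genes, so that nothing can be read from its absence at 8 genes. UROD, uroporphyrinogen decarboxylase, stood out with folds of 17.5 and 11.5 (120 and 75 fragments), 480 bp inside the gene, and a USF2 peak of 2.87 in clone 4 only. ALAS1, the housekeeping form of the committed enzyme, had 5.92 and 5.96 at 14 bp before its start. ALAS2, the erythroid form, had 4.91 and 3.95 at 2682 bp inside the gene and no peak at its start.

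The other heme enzymes had lower folds than UROD. ALAD had 6.52 and 5.22 at 3963 bp inside the gene and 4.53 and 4.65 at 203 bp before the start, UROS had 6.14 and 6.62, and PPOX had 3.33 and 5.31 at a place 342 bp from the start of B4GALT3. PPOX also had a fold of 5.89 at 107 bp inside its own start in clone 4 only. CPOX, with 4.72, and FECH, which inserts the iron, with 3.95, had PLAG1-S peaks in clone 5 only, of 16 and 15 fragments and at 153 and 7 bp inside the gene.

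Heme sensing and transport genes had PLAG1-S in both clones. BACH1, a repressor released from DNA by heme, had folds of 13.3 and 11.5 (105 and 75 fragments) at a summit 21 bp outside its gene body and 6303 bp before the start in the promoter table, and USF2 had a fold of 6.15 (44 fragments) there in clone 4 only. SLC48A1, a lysosomal heme transporter, had 11.5 and 8.19 at a place 296 bp from the start of RAPGEF3, with a USF2 peak of 4.70 in clone 4. This place is 14062 bp before the start of SLC48A1 in the promoter table, though within its gene body. At 107 bp past that start PLAG1-S had folds of 4.42 and 3.90 with no USF2 peak. In clone 5 the USF2 peak of SLC48A1, with a fold of 4.93, lay elsewhere in the gene. FLVCR1, described as a heme and choline transporter, had 4.63 and 5.68 at 282 bp inside the gene and no USF2 peak.

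The alpha globin region held more PLAG1-S peaks per 100 kb than the beta globin region. Over 145 kb of chromosome 16, from 60 kb before HBZ to 60 kb past HBA1, 18 PLAG1-S peaks were called in clone 4 and 17 in clone 5, and 14 were called in both. Over 164 kb of chromosome 11 around the beta globin genes there were 3 and 2, with 2 in both. Per 100 kb these are 12.4 and 11.7 peaks against 1.82 and 1.22. No density over the genome was computed, so neither region is called rich or poor in peaks. The alpha region also holds HBM, HBQ1 and all or part of NPRL3, LUC7L and FAM234A. The beta region also holds OR51V1, OR51B4 and OR51B2, and the part of these other genes in the densities was not tested. No USF2 peak of both clones lay in either region, and the 2 single ones were both in clone 4 and in the alpha region.

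HBZ, the embryonic alpha-like globin, had 3 PLAG1-S peaks in both clones. The one 36 bp before its lower end had folds of 4.93 and 8.09, the one inside the gene 5.18 and 6.64, and the one 34 bp past its other end 4.05 and 5.65. All of these were larger in clone 5, the reverse of most member loci. They were not alone in this, since 7 of the 14 PLAG1-S loci of both clones in the alpha region were larger in clone 5. Between HBZ and HBM, an alpha-like globin gene, folds were 6.91 and 7.01 at 10.2 kb and 5.58 and 3.85 at 11.7 kb from the lower end of HBZ.

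At HBA2, an adult alpha globin gene, the peak of both clones lay 163 bp before the lower end with folds of 3.60 and 4.84, and a peak inside the gene was in clone 4 only with 3.47. At HBA1, peaks at the gene itself were called in 1 clone each, with 4.56 in clone 4 at 9 bp before the lower end and 3.86 in clone 5 inside the gene. HBA1 counts as occupied in both clones through a site next to HBQ1, a theta globin gene, which had a fold of 6.12 in clone 4 over peaks of 4.35 and 5.02 in clone 5. A further HBQ1 site had 8.53 and 6.77. HBA1 and HBA2 are near-identical copies, so reads of 50 bases cannot all be placed between them and their folds are uncertain.

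Further from the globins, NPRL3 held the 2 largest folds of the region in clone 4 and the largest in clone 5. NPRL3 houses the known distal enhancers of alpha globin in its introns, and its own start, 14.0 kb from HBZ, had PLAG1-S folds of 11.5 and 8.37. Inside the gene, folds were 14.2 and 6.98 at 55.5 kb from HBZ, 4.45 and 4.54 at 45.8 kb, and 4.71 and 4.11 at 39.1 kb. The site at 55.5 kb had a USF2 peak of 5.25 in clone 4, 8 bp from the PLAG1-S summit. Folds were 5.47 and 4.60 at 9.48 kb from HBZ, between NPRL3 and HBZ, and 7.10 and 7.79 at the far side, 222 bp inside FAM234A. Enhancers are not annotated in the tables used, and no peak was matched to one.

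In the beta region all peaks lay beyond the ends of the fetal gamma globin genes that face HBE1. A PLAG1-S peak 202 bp beyond the higher end of HBG2 had folds of 8.96 and 6.71 (40 and 28 fragments), and one 3943 bp beyond it, toward HBE1, had 9.91 and 7.61 (43 and 31 fragments). Beyond the corresponding end of HBG1, at 260 bp, a peak of 6.15 (34 fragments) was called in clone 4 only. HBG1 and HBG2 are near-identical copies, so the split between them is uncertain. Between HBE1 and the end of the region on its far side, which takes in the side of the locus control region, and from HBG1 past HBD and HBB, no list had a peak.

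**Figure D3:**
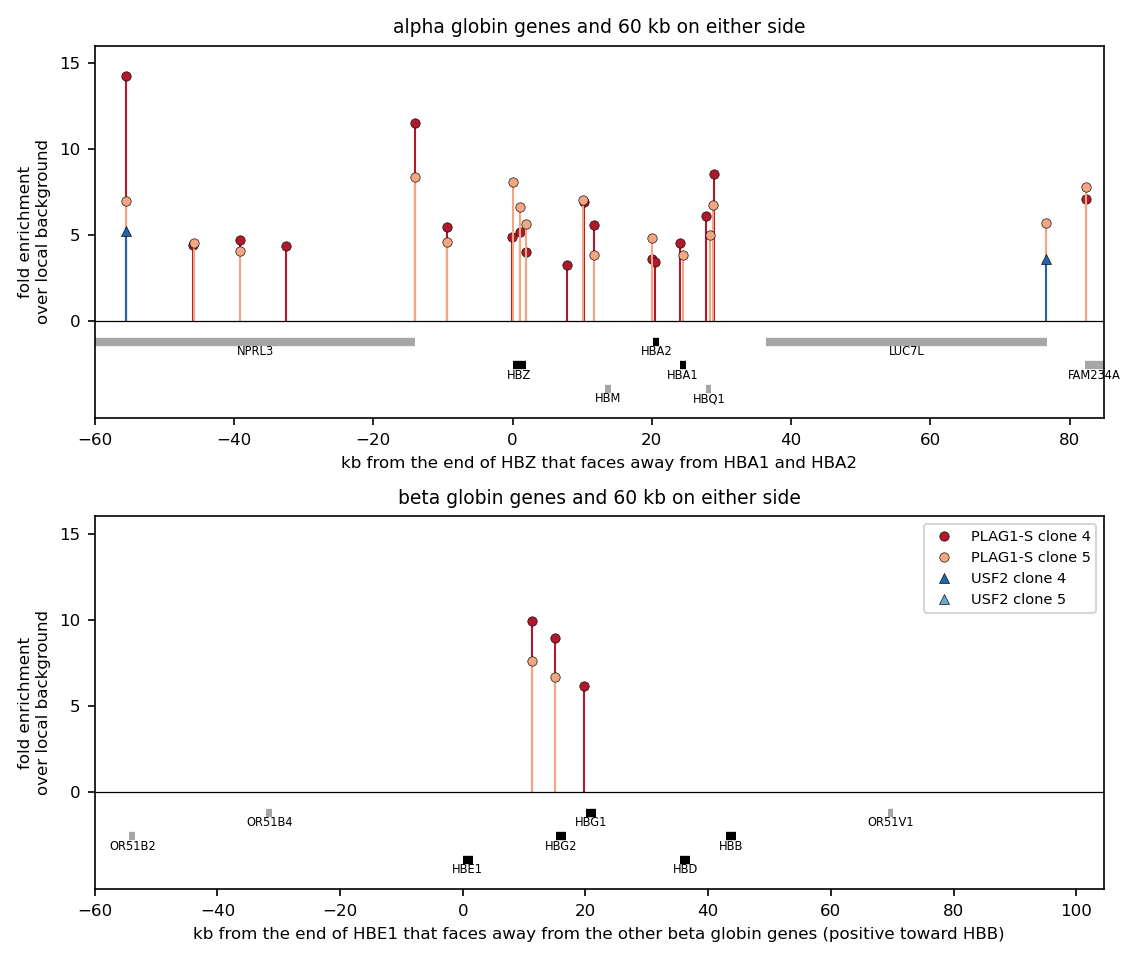
Peaks of the 4 lists in the alpha (top) and beta (bottom) globin regions, with fold enrichment on the vertical axis and distance in kb from HBZ or HBE1 on the horizontal axis. Black bars are member globin genes and grey bars other coding genes. PLAG1-S peaks are spread over the alpha region from NPRL3 to FAM234A, whereas the 3 places with a peak in the beta region lie beside HBG1, beside HBG2 and 3943 bp beyond HBG2.

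PLAG1-S folds at the members were compared between the clones. The 48 loci called in both clones had a median ratio of clone 4 to clone 5 fold of 1.15, from 0.609 to 1.84, where all PLAG1-S peaks of both clones had a median of 1.13. Clone 4 had the larger fold at 34 loci and clone 5 at 14, and clone 4 had it at 66.3% of all PLAG1-S peaks of both clones. Spearman's rho between the clones across the loci was 0.813, a description over loci that share their libraries. Summits of the clones were a median of 31 bp apart.

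Of the PLAG1-S peaks at members, 83.1% in clone 4 and 91.4% in clone 5 overlapped a peak of the other clone, beside 57.1% and 72.6% of all PLAG1-S peaks. For USF2 the shares were 40% of 15 clone 4 peaks and 83.3% of 6 clone 5 peaks, beside 25.8% and 55.7% of all peaks. The shares of all peaks include peaks away from coding genes, unlike those at members, and no test of these shares was made.

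**Figure D4:**
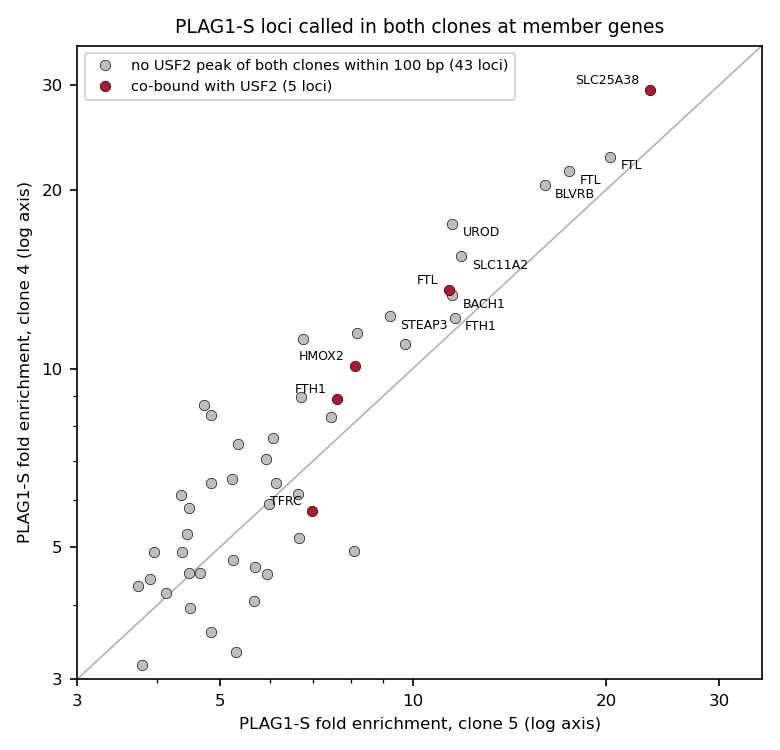
PLAG1-S fold enrichment in clone 4 against clone 5 (both log axes) at the 48 member loci called in both clones, with red for loci co-bound with USF2, grey for the others and a line at equal folds. Loci with a fold over 12 in clone 4 and co-bound loci are named, and 34 of the 48 lie above the line.

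The co-bound peaks at TFRC, FTL and FTH1 did not have coincident summits when USF2 peaks of both clones were considered. Of the 54 PLAG1-S peaks of both clones at members, 8 were co-bound (14.8%, beside 10.4% of such peaks at all coding genes), with a median clone 4 fold over the 54 of 6.42 (6.31 at all coding genes). Of these 8, 2 had the nearest clone 4 summit of such a USF2 peak within 50 bp, those of SLC25A38 and HMOX2, and the others were 121 to 639 bp away. The 8 peaks lay at 5 genes and are not separate sites. Those at FTH1 shared the same USF2 peak, and those at FTL shared the same clone 5 USF2 peak. Over the genome 81.9% of 2108 co-bound peaks had it within 50 bp. With summits within 100 bp required, the members with a co-bound peak fell from 5 to 2, whereas the share of all genes was 9.23%. With a −log10 q of 10 required in each list, FTH1 and SLC25A38 remained.

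CACGTG and USF2 peaks of both clones fell in the promoter windows of the same 2 members. Of the 25 members with a promoter window, from 250 bases before to 50 bases after the start, SLC25A38 and HMOX2 held CACGTG, which is its own reverse complement, and 8.88% of 15842 coding windows did. They were also the only 2 of the 25 with a USF2 peak of both clones over the window, beside 5.27% of all windows. Of the other co-bound members, FTH1 had no window, and the USF2 peaks of both clones at FTL and TFRC lay outside theirs. The sequence under those peaks was not searched, so the windows cannot tell whether they hold an E-box. Across all coding windows, 40.9% of 1407 with CACGTG had a USF2 peak of both clones over them and 71.6% a PLAG1-S peak of both clones, against 1.79% and 26.2% of the 14435 without it.

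G-rich sequence was common at the members, and GGGGC was common over all windows too. GGGGC was found in 22 of 25 windows (88%, near the 79.3% of all windows), on either strand, and the bipartite form in 13 (52%, beside 29.6%), each of whose matches holds a GGGGC. Other forms of the PLAG1 sequence were not counted. Over all windows with the bipartite form 43.9% had a PLAG1-S peak of both clones, and 24.4% of those without it did. Of the 25 member windows 15 had one, beside 30.2% of all windows. Median GC content was 67% in the members and 62.7% in all windows.

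Motifs of erythroid factors were sought in the same windows. AGATAA, the GATA motif, was in the windows of ALAS2, BACH1, CPOX and HBD (7.57% of all windows), and TGAGTCA, the NF-E2 core, in those of ALAS2 and HBD (3.66%). CCACACCC was in no member window and in 3.38% of all windows. Neither ALAS2, BACH1, CPOX nor HBD had a PLAG1-S peak of both clones over its window, and 12.1% of all windows with AGATAA had one. The BACH1 window lies inside the gene body, and the strongest PLAG1-S peak of BACH1, with folds of 13.3 and 11.5, lay 6303 bp before that start. Searches covered both strands, and a match describes the letters and not a bound site.

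A second list of 51 genes of the same pathways was counted in the same way. PLAG1-S peaks of both clones lay at 34 of them (66.7%), USF2 peaks of both clones at 7 (13.7%) and co-bound peaks at the same 7, where the shares of all genes were 52%, 10.3% and 9.98%. Within 1 kb of the start the counts were 30 for PLAG1-S and 6 for USF2, beside 38.9% and 7.05% of all genes. The USF2 and co-bound counts were thus near the shares of all genes. By role, and beside the same 52% of all genes, PLAG1-S in both clones lay at 2 of 3 other globin genes, 9 of 10 heme synthesis and transport genes, 15 of 20 iron-sulfur cluster genes, 3 of 9 systemic iron genes and 5 of 9 other cellular iron genes.

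The 7 co-bound genes of that list had the coincident form. Among them were ABCB6, a porphyrin transporter, FDX2 and MMS19 of iron-sulfur cluster assembly, FBXL5, the iron-sensing ubiquitin ligase subunit that targets iron-regulatory proteins, PCBP1, an iron chaperone that loads ferritin, and SLC39A14, an iron and zinc importer. In clone 4 all 7 had PLAG1-S and USF2 summits within 50 bp, from 1 to 29 bp apart. FBXL5 had PLAG1-S folds of 31.0 and 28.0 and USF2 folds of 14.3 and 9.79, and MMS19 had 30.8, 19.7, 17.9 and 12.5 in the same order. Of the 5 with a promoter window, ABCB6, FBXL5 and FDX2 held CACGTG.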

How the data were processed

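Peaks of PLAG1-S and USF2 in clones 4 and 5 were used as the authors deposited them, 1 list per immunoprecipitated library, with libraries not pooled. Per the labels, reads were handled with HISAT2 2.0.4, cutadapt, SAMtools, bedtools and HOMER on hg38, and MACS2 called peaks against the merged inputs. The MACS2 version and the treatment of reads matching several places are not given in the sources used here. The authors' deposited fold is the ratio of summit to local background with 1 added to each. The −log10 p and q values that the authors deposited rest on a Poisson model, and the deposited score is 10 times −log10 q, rounded down.

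Gene bodies and promoter windows were those of RefSeq (GRCh38.p14, the coordinates of hg38), 1-based. A start was given for 25 of 37 members and 15842 of 20037 coding genes. Overlap between clones needed 1 shared bp. Co-bound means that the edges of a PLAG1-S and a USF2 peak, each found in both clones, lay within 100 bp. Fragments and background were recovered from fold and −log10 p (tolerance 0.001 in −log10 p) for 100% of peaks. Scripts were tested on simulated peaks. Python 3.11.15, numpy 2.4.6, pandas 2.3.3, scipy 1.17.1 and matplotlib 3.10.9 were used.

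The members and lists were chosen with earlier results of these data known. By rule, all 37 members are named, with values for co-bound members, for the member with the largest clone 4 PLAG1-S fold in each role and for peaks of both clones in the globin regions, and co-bound genes of the second list are named, except 1 that is not reported here. Other values were added after they were seen. With 2 clones per factor no test between groups was made. The clone pairs the 2 factors, since samples of 1 clone come from the same line. Alternatives were the union of clones, each clone alone, 50% reciprocal overlap, a −log10 q of at least 10, other windows, summits in place of intervals, and all gene types as background.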

Additional observations from a re-analysis of the deposited data

How the results depend on the processing

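Of 71 recomputed member counts, 57 stayed within 1.5 times the value reported, and the 14 that moved are given here. With a −log10 q of at least 10 in each list, members with a PLAG1-S peak of both clones fell to 17 and those with one near the start to 14, the USF2, USF2 near the start and co-bound counts fell to 2 each, and PLAG1-S peaks of both clones in the alpha globin region to 6, while the shares of all genes fell to 33.04% for PLAG1-S, 5.85% for USF2 and 5.74% for co-bound peaks. With the union of both clones, USF2 members rose to 10 (27.1% of all genes), co-bound members to 9 (22.1% of all genes) and USF2 peaks of the alpha globin region to 2. With summits within 100 bp, 2 members were co-bound (9.23% of all genes). Within 100 kb of the alpha globin genes 1 USF2 peak of both clones was found. With each clone alone, the counts ranged from 6 to 10 for USF2 members (13.6% to 25.3% of all genes), from 5 to 9 for co-bound members (11.3% to 20.5%) and from 0 to 2 for USF2 peaks in the alpha globin region, the upper value in clone 4 each time. With the clone as a block (co-bound peaks sought within each clone and averaged), 7 members were co-bound (15.9% of all genes), within 1.5 times the count reported. Of 32 shares of all genes, 21 stayed within 1.5 times.

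USF2 had fewer peaks in clone 5 than in clone 4, and the part of depth in this was not tested. Sites with fewer fragments than the 11 of the smallest peaks are not seen in these lists. The folds of near-identical copies, HBA1 with HBA2 and HBG1 with HBG2, and of the ferritin genes are uncertain. The cause of the differences between settings was not tested.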
